A study of Bos taurus with 55 samples.

Results

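Among 55 bovine mammary biopsies, 7 had expression profiles that correlated less with the rest than all others did. They were chosen on the measured values: each array's log2 values were correlated with those of the 54 other arrays, and the arrays with a mean Pearson correlation under 0.96 were taken. These were the period I biopsies of cows 5, 10 and 12 and the period II biopsies of cows 1, 2, 5 and 15, so 6 of 28 cows gave them. The other 48 biopsies, 25 of period I and 23 of period II, are the comparison. Because the same expression values chose the 7 biopsies, their differences from the 48 are sizes without a test, and nothing is supported by them.

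The 28 Holstein-Friesian dairy cows were in mid-lactation. In period I, of 23 days, each was fed 2.7% oil from rapeseed, soybean or linseed, or all 3 mixed, given to 7 cows apiece, and a biopsy was taken at about 176 days in milk. In period II, of 28 days, all received a control diet, with a second biopsy at about 204 days in milk, for which cow 28 has no array here. Of the 7 biopsies, those of cows 10 and 12 were taken on rapeseed oil, the period I biopsy of cow 5 on linseed oil, and the remaining 4 on the control diet. Total RNA of the tissue was hybridised to 1-colour Affymetrix arrays, and levels below are log2 of the deposited intensity, on which 1 unit is a 2-fold difference. A biopsy holds all cells of the tissue, so fewer cells of a type and less RNA per cell cannot be told apart.

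In a lactating gland the luminal epithelial cells of the alveoli make caseins, whey proteins and lactose and assemble triacylglycerol into droplets. The droplets leave the cell wrapped in membrane that carries butyrophilin, xanthine dehydrogenase and mucins. Under inflammation or milk stasis these cells are known to lower secretory genes and to make acute phase and complement proteins, while leukocytes enter the tissue.

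The 7 biopsies had lower levels of milk fat genes and of genes of amino acid and cholesterol supply, and higher levels of acute phase, complement, keratin, matrix and leukocyte genes. Of 10680 probe sets, 1043 were higher by at least 1 log2 unit in the 7 biopsies (9.77%) and 549 were lower (5.14%), in a fit with period as a covariate. The counts of list members given below were not tested against these shares. The median difference over all probe sets was -0.02. With each array centred on its own median, the split was 785 higher and 755 lower, and the median of all probe sets moved to -0.18. Large differences were more frequent on the lower side, with 59 probe sets lower by at least 3 units and 28 higher by that much. In 148 probe sets (1.39%) every one of the 7 stood above all 48, and in 193 (1.81%) every one stood below. Probe sets lower by at least 1 unit had a median level of 6.34 in the 48 biopsies, against 4.19 for those that were higher and 3.31 for all. Of the 200 brightest probe sets of the 48 biopsies, 48 were lower by at least 1 unit and 14 were higher. Dim probe sets have little room to fall and the brightest have little room to rise. The part of this limit in the pattern by level was not tested.

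**Figure D1:**
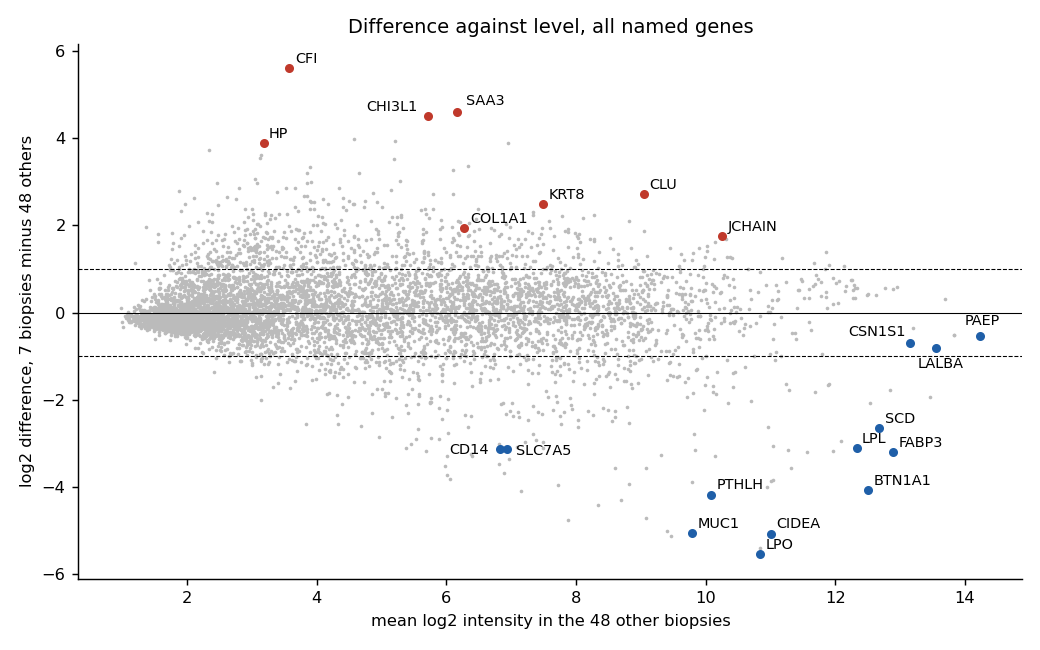
Difference between the 7 biopsies and the 48 others (log2, vertical axis) against the mean log2 intensity in the 48 others (horizontal axis), 1 point per named gene; dashed lines mark 1 log2 unit. Milk fat genes such as CIDEA (-5.07), BTN1A1 (-4.08) and LPL (-3.11) lie low on the bright side, the milk protein genes PAEP (-0.53) and CSN1S1 (-0.70) lie near 0 at the brightest end, and CFI (5.60) lies highest.

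Among the gene lists, that of triacylglycerol assembly and the fat globule had the median farthest from 0. Of its 15 measured genes 11 were lower by at least 1 unit and 0 were higher, with a median of -2.22. CIDEA, a lipid droplet protein that takes part in milk fat secretion in mice, read 8.72, 3.62 and 3.61 in the period I biopsies of cows 5, 10 and 12. In the period II biopsies of cows 1, 2, 5 and 15 it read 7.42, 9.87, 5.42 and 2.91. The 48 others lay between 9.20 and 11.56 with a median of 11.18, so 6 of the 7 lay below all of them and cow 2 alone lay among them. The difference was -5.07 log2 units, a 33.6-fold lower level.

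Butyrophilin (BTN1A1), a structural protein of the globule membrane, ranged from 5.86 to 11.67 in the 7 biopsies with a median of 8.50. In the 48 others it ranged from 12.05 to 12.77, and the groups did not overlap. The mucin MUC1, on the same membrane, ranged from 1.81 to 8.65 with a median of 4.03, against 8.64 to 10.64 with a median of 9.86, an overlap at a single biopsy. Adipophilin (PLIN2), which coats lipid droplets, was lower by 3.05 units, and MFGE8, which binds phosphatidylserine, by 3.84. XDH, the xanthine dehydrogenase of the membrane, was lower by 1.78. Among the enzymes that build triacylglycerol, GPAT4 was lower by 2.97, AGPAT1 by 2.23 and GPAM by 1.65. DGAT1 (-0.32) and DGAT2 (-0.32) were dim in both groups, with means from 1.8 to 2.4.

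Genes that bring fatty acids into the cell were lower as well, in 7 of 8 measured members (median -1.75). Lipoprotein lipase (LPL), which frees fatty acids from blood lipoproteins, read 10.71, 7.87 and 7.92 in the period I biopsies of cows 5, 10 and 12. It read 9.78, 11.03, 9.26 and 7.90 in the period II biopsies of cows 1, 2, 5 and 15. The 48 others ranged from 11.40 to 12.67 with a median of 12.41, with no overlap and a difference of -3.11. The fatty acid transporter SLC27A6 differed by -3.55, the scavenger receptor CD36 by -2.08, and the binding protein FABP4 by -1.82. FABP3, the main fatty acid binding protein of the secreting cell, ranged from 7.51 to 12.31 against 12.29 to 13.17, a difference of -3.20. The acyl-CoA binding protein DBI, the 1 member not lower by a unit, differed by -0.09.

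Fatty acid synthesis was mixed. Of 12 measured genes 5 were lower, 1 was higher and 6 lay between, with a median of -0.73. The acetate-activating enzyme ACSS2, which feeds synthesis from acetate in ruminants, differed by -3.86, and its mitochondrial relative ACSS1 by -2.16. Acetyl-CoA carboxylase (ACACA), the committed step, differed by -2.84 from a level of 5.0 in the 48 biopsies. The desaturase SCD ranged from 8.21 to 11.90 with a median of 10.62, against 12.30 to 12.98 with a median of 12.71, and the groups did not overlap (difference -2.64). The elongase ELOVL5 was higher by 1.78, and ATP citrate lyase (ACLY) by 0.87. GPD1, which makes the glycerol phosphate backbone, was lower by 4.30.

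Of 8 regulators of lipid synthesis 2 were lower by at least 1 unit, with a median of -0.65. INSIG1, which retains the SREBP complex in the endoplasmic reticulum and is itself a sterol-regulated gene, differed by -2.63 with no overlap. The nuclear receptor PPARG differed by -1.31. SREBF1 (-0.76) and THRSP (-0.48) had mean levels of 3.1 and 2.4 in the 48 biopsies, close to the dim end of the arrays. All 12 measured genes of cholesterol synthesis were below 0, 10 of them by at least 1 unit (median -1.46), and 6 had no overlap between the groups. Farnesyl diphosphate synthase (FDPS) was close to uniform, from 5.36 to 5.92 in the 7 biopsies (SD 0.18) and from 6.64 to 8.54 in the 48. DHCR7, the last step to cholesterol, differed by -2.28, and NSDHL by -2.35.

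Milk protein genes differed far less than milk fat genes, so a description of these biopsies as low in milk synthesis fits the sizes of the fat genes and only weakly those of the protein genes. Alpha-lactalbumin (LALBA), the cofactor of lactose synthase, ranged from 11.24 to 13.43 with a median of 12.92, against 13.24 to 13.76 with a median of 13.56. Of the 7 biopsies 3 lay within the range of the others and 1, of cow 15, lay far below (difference -0.82). The caseins CSN1S1, CSN3 and CSN1S2 differed by -0.70, -0.51 and -0.50, and beta-lactoglobulin (PAEP) by -0.53. These probe sets had means of 13.1 to 14.2 in the 48 biopsies, near the highest value of the table (14.4), and whether they were saturated is not given in the files. GLYCAM1, the lactophorin of the milk fat globule, ranged from 9.44 to 13.30 against 13.17 to 13.60 (difference -1.93). RNA was measured, and milk yield at biopsy was not.

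Genes of lactose synthesis and glucose supply went both ways. Beta-galactosyltransferase (B4GALT1), the catalytic part of lactose synthase, differed by -1.63, and the glucose transporters SLC2A1 and SLC2A8 by -2.33 and -1.58. Hexokinase HK1 was higher by 1.49, and UGP2 (-0.99), SLC35A2 (-0.41) and PGM1 (-0.003) lay between. Over the 14 measured genes of milk protein and lactose, 4 were lower, 1 was higher and 9 lay between, with a median of -0.62.

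Supply genes beyond lipid were lower too. Of 11 genes of amino acid transport and serine synthesis, 6 were lower by at least 1 unit and 0 were higher (median -1.0). The large neutral amino acid transporter SLC7A5 ranged from 3.06 to 4.31 in the 7 biopsies and from 4.58 to 9.01 in the 48, without overlap (difference -3.13). PSAT1 and PSPH of serine synthesis differed by -2.95 and -1.93, and the glutamine transporter SLC1A5 by -2.35. Parathyroid hormone-related protein (PTHLH), a hormone that the lactating gland releases, ranged from 3.07 to 8.03 against 8.18 to 11.32, without overlap (difference -4.17). The water channel AQP3 differed by -3.23 and the sodium channel subunit SCNN1A by -2.43, while the chloride cotransporter SLC12A2 was higher by 1.60. Among 14 genes of protein folding in the endoplasmic reticulum, 3 were lower, namely CALR (-1.06), PDIA4 (-1.11) and SDF2L1 (-1.48), with a median of -0.60.

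Most of the 12 largest negative differences lay outside the lists above. Lactoperoxidase (LPO), an antibacterial enzyme of milk, showed the largest of them, at -5.54 log2 units or 46.6-fold lower. Its levels were 7.72, 3.28 and 2.75 in period I of cows 5, 10 and 12, and 6.04, 10.22, 3.96 and 3.48 in period II of cows 1, 2, 5 and 15. The 48 others ranged from 9.47 to 11.86, and only cow 2 fell among them. GP2, a membrane glycoprotein that binds bacteria in other epithelia, differed by -5.40, the lipoxygenase ALOX15 by -5.13, and the globule mucin MUC15 by -5.01. AGR2, a disulphide isomerase of mucin-secreting cells, differed by -4.41. TECTB (-4.76), TMEM120B (-4.71) and SERINC2 (-4.08) completed the group.

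**Figure D2:**
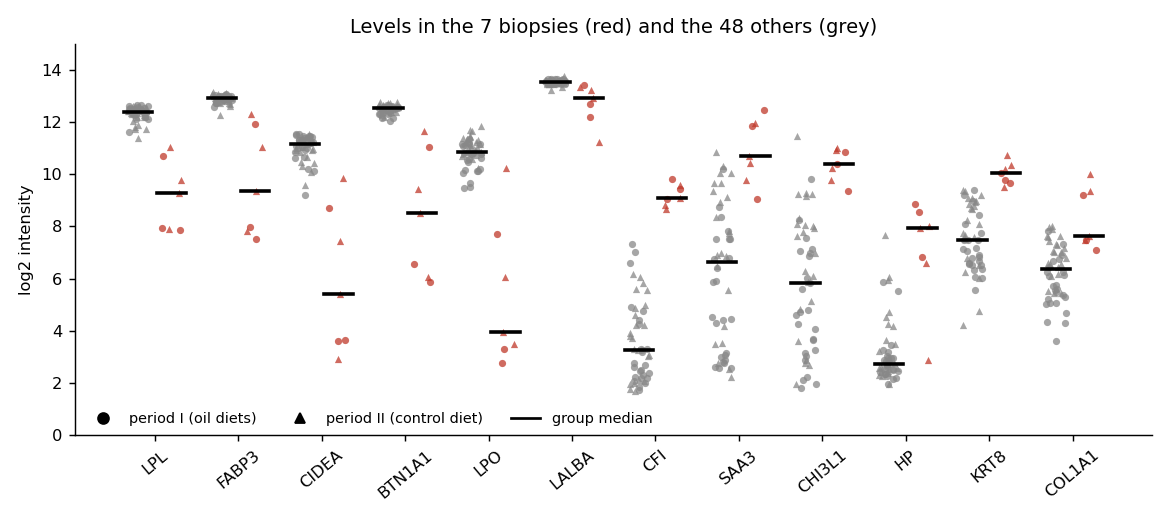
Log2 intensity of 12 genes (vertical axis), 1 point per biopsy, in the 7 biopsies (red) and the 48 others (grey); circles are period I, triangles period II, and bars are group medians. LPL and BTN1A1 of the 7 lie below all grey points, CFI and KRT8 lie above all of them, and SAA3, CHI3L1, HP and COL1A1 overlap.

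On the higher side, complement factor I (CFI), a protease that cleaves C3b and C4b, had the largest difference, 5.60 log2 units or 48.4-fold. It read 9.03, 9.82 and 9.42 in period I of cows 5, 10 and 12, and 8.83, 8.67, 9.09 and 9.59 in period II of cows 1, 2, 5 and 15. The 48 others ranged from 1.69 to 7.33 with a median of 3.27. All 7 lay above them, within little more than 1 unit of each other. Of 9 measured complement genes 7 were higher and 0 were lower (median 1.69). CFB, of the alternative pathway, differed by 3.52, the binding protein C4BPA by 2.97 and C1S by 1.69, whereas C3 differed by -0.08.

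Acute phase and defence genes divided into both directions, with 8 of 15 higher and 3 lower (median 1.40). The list's mean deviation from the median of the 48 lay outside their range in 2 of the 7 biopsies. Serum amyloid A3 (SAA3), an acute phase protein made in the mammary gland, read 11.84, 12.46 and 9.04 in period I of cows 5, 10 and 12, and 11.96, 10.71, 9.77 and 10.45 in period II of cows 1, 2, 5 and 15. The 48 others spread from 2.22 to 10.84 with a median of 6.62, so the groups overlapped widely (difference 4.59). CHI3L1, a chitinase-like protein of inflamed tissue, ranged from 9.35 to 11.02 against 1.80 to 11.46, also overlapping (difference 4.50). Haptoglobin (HP), which binds haemoglobin, was high in 6 of the 7, from 6.59 to 8.85, and low in cow 2 (2.86), against 1.95 to 7.66 in the 48 (difference 3.88). The beta-defensin LAP split the 7 biopsies into 4 at 8.01 to 9.74 and 3 at 3.68 to 4.27. The 3 lower members were LPO, CD14 (-3.12) and the immunoglobulin receptor PIGR (-1.38), all of which the secreting epithelium makes in cattle. SAA3 and the class I genes have near-identical copies that a probe set may not tell apart.

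Leukocyte markers were higher in part. Of 10 macrophage markers 7 were higher and 1 was lower (median 1.51), with TYROBP, a signalling adaptor of myeloid cells, at 6.75 to 7.80 against 3.50 to 6.48 and no overlap. The complement starter C1QB (2.03) and AIF1 (1.91) were among them, while CD14 was the lower one and the scavenger receptor MSR1 differed by -0.90. Of 9 T and NK markers 3 were higher (CD3G 2.02, CD8A 1.74 and CD3E 1.08; median 0.56), and of 6 B and plasma cell markers 4 were (median 1.11). The immunoglobulin joining chain JCHAIN ranged from 11.56 to 12.67 against 7.61 to 11.54, without overlap. Of 7 neutrophil markers 3 were higher (median 0.79), among them S100A9 (2.08) and S100A12 (1.77), with MPO (-0.20) and ITGAM (0.14) dim in both groups. S100A12 reached 6.58 in the 7 biopsies and 7.90 in the 48. S100A8 differed by 0.79 and was above the median of the 48 of its period in 4 of the 7. The mean deviation of the neutrophil list lay within the range of the 48 in all 7 biopsies. That of the macrophage list lay outside it in 3 of the 7, of the T and NK list in 2, and of the B and plasma list in 1. Antigen presentation genes were higher in 9 of 13 (median 1.20), led by the class I gene JSP.1 (3.88), PSMB9 of the immunoproteasome (1.80) and the class II chain BOLA-DRA (1.72).

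Among 24 chemokine and NF-kappa-B genes 8 were higher and 2 were lower (median 0.23). The list's mean deviation ran from 0.48 to 0.91 in the 7 biopsies, all within the range of the 48 (-0.42 to 1.42). CCL2, which draws monocytes, differed by 2.99, CXCL10 by 2.53, CXCL5 by 2.52 and the inhibitor NFKBIA by 2.19, while CXCL3 (-1.15) and TLR2 (-1.36) were lower. CXCL13, which draws B cells, was outside that list and among the 12 largest, at 3.60. IL1B (-0.33), IL6 (-0.28) and TNF (0.09) had means between 1.6 and 2.4 in both groups, near the dim end.

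Luminal epithelial markers did not follow the secretory genes. Of 11 measured, 5 were higher, 0 were lower and 6 lay between, with a median of 0.56. The list's mean deviation lay outside the range of the 48 in 2 of the 7 biopsies. Keratin 8 (KRT8), a filament protein of luminal cells, ranged from 9.51 to 10.72 in the 7 biopsies against 4.23 to 9.41 in the 48, without overlap (difference 2.48). CLDN4 (1.51), CDH1 (1.33), KRT7 (1.23) and EPCAM (1.22), all of cell contacts or filaments of epithelium, were higher, and CLDN3 (-0.20), CLDN7 (-0.05) and SPINT2 (-0.51) lay between. Myoepithelial markers differed little, with 1 of 7 higher (DES 1.36, from a dim level) and a median of 0.22, beside 9.77% higher of all probe sets.

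Fibroblast and matrix genes were higher in 9 of 11 (median 1.36). The collagen chain COL1A2 ranged from 10.35 to 11.93 against 7.62 to 10.19, without overlap (difference 1.86). COL1A1 ranged from 7.08 to 9.99 with a median of 7.62, against 3.60 to 8.00 with a median of 6.35, and 4 of the 7 lay within the range of the others (difference 1.93). FBLN1 (2.20), POSTN (1.71), COL3A1 (1.67) and vimentin (VIM, 1.36) were also higher. Endothelial markers were not, with 0 of 10 higher, 1 lower (ENG -1.55) and a median of -0.34. Such counts are near the 9.77% higher and 5.14% lower of all probe sets.

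Markers of adipocytes, muscle, erythrocytes and keratinised epithelium differed by less than 1 unit. The 7 measured adipocyte markers had a median of 0.02. Complement factor D (CFD), which adipocytes release, was the brightest, at 5.74 to 7.63 in the 7 biopsies and 4.75 to 6.73 in the 48, while leptin (LEP) ranged from 1.27 to 1.71 in the 7 biopsies and from 1.44 to 2.08 in the 48. The list's mean deviation from the median of the 48 ran from -0.10 to 0.43 in the 7 and from -0.22 to 0.22 in the 48, with 3 of the 7 outside the range of the 48. Its part in the other differences was not tested. Muscle markers (7 measured, median -0.18), erythrocyte markers (4, median -0.13) and those of keratinised epithelium (2, median -0.04) had 0 members past 1 unit. The haemoglobin chain HBB reached 4.42 in the 7 and 6.12 in the 48. The median differences of the adipocyte, fatty acid oxidation and tight junction lists turned from 0.02, 0.09 and 0.03 to -0.14, -0.08 and -0.13 with each array centred on its median.

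Genes of prolactin, growth hormone and insulin-like growth factor signalling went both ways, with 2 of 14 higher and 3 lower (median -0.28). Of all probe sets 9.77% were higher and 5.14% lower. The binding proteins IGFBP4 (2.38) and IGFBP3 (1.96) were higher, and STAT5B (-1.84), AKT1 (-1.20) and CISH (-1.16), a target of STAT5, were lower. The prolactin receptor (PRLR) differed by -0.50. Of 18 genes of early involution and cell death 6 were higher and 1 was lower (median 0.39). Clusterin (CLU), a chaperone that is abundant in the involuting gland of rodents, ranged from 11.21 to 12.55 against 5.13 to 11.51 (difference 2.72), and STAT3, which drives the first phase of involution in mice, differed by 1.08. TIMP1 (1.56), LGALS1 (1.38), CTSS (1.28) and CEBPD (1.07) were the other higher members. Cathepsin L (CTSL) was lower without overlap (difference -2.66), and IGFBP5 (-0.33), which rises in the involuting gland of rodents, had means of 1.9 and 2.2, near the dim end.

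The 7 biopsies differed among themselves in how far the milk fat genes were down. The mean deviation of the 15 triacylglycerol and globule genes from the median of the 48 of the same period was -0.56 in cow 2 and -1.22 in the period I biopsy of cow 5. It was -2.01 in cow 1, -2.83 in the period II biopsy of cow 5, -3.18 in cow 15, -3.25 in cow 10 and -3.51 in cow 12. The 48 others ranged from -0.63 to 0.41, so cow 2 lay inside their range and the other 6 lay below it. Cow 2 and the period I biopsy of cow 5 also had the highest mean correlations of the 7, 0.950 and 0.951.

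The 7 biopsies lay closer together in 3 other groups of genes. Cholesterol synthesis genes ran from -1.95 to -1.26 in the 7, against -0.99 to 0.60 in the 48. Amino acid supply genes ran from -1.44 to -0.95, against -0.51 to 0.77. Complement genes ran from 1.43 to 2.81, against -1.35 to 1.95, with 1 biopsy, of cow 1, within the range of the 48. In cow 2, cholesterol genes (-1.26), amino acid genes (-1.02), complement genes (2.05) and KRT8 (9.51) stood apart while its globule genes did not.

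Some groups stood out in single biopsies. The interferon genes had a mean deviation of 3.21 in cow 1, where ISG15, a ubiquitin-like interferon-induced protein, reached 9.51 and the antiviral MX1 reached 8.55. In the other 6 biopsies the mean deviation lay between 0.15 and 1.52, and ISG15 lay between 2.78 and 5.98. Over the 7 biopsies, 7 of 11 interferon genes were higher (median 1.29). The myoepithelial markers reached 1.51 in cow 2 and lay between -0.08 and 0.52 in the others. The acute phase list reached 2.55 in the period I biopsy of cow 5 and 1.71 in cow 10, and stood at 0.09 in cow 15 and 0.23 in cow 12.

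**Figure D3:**
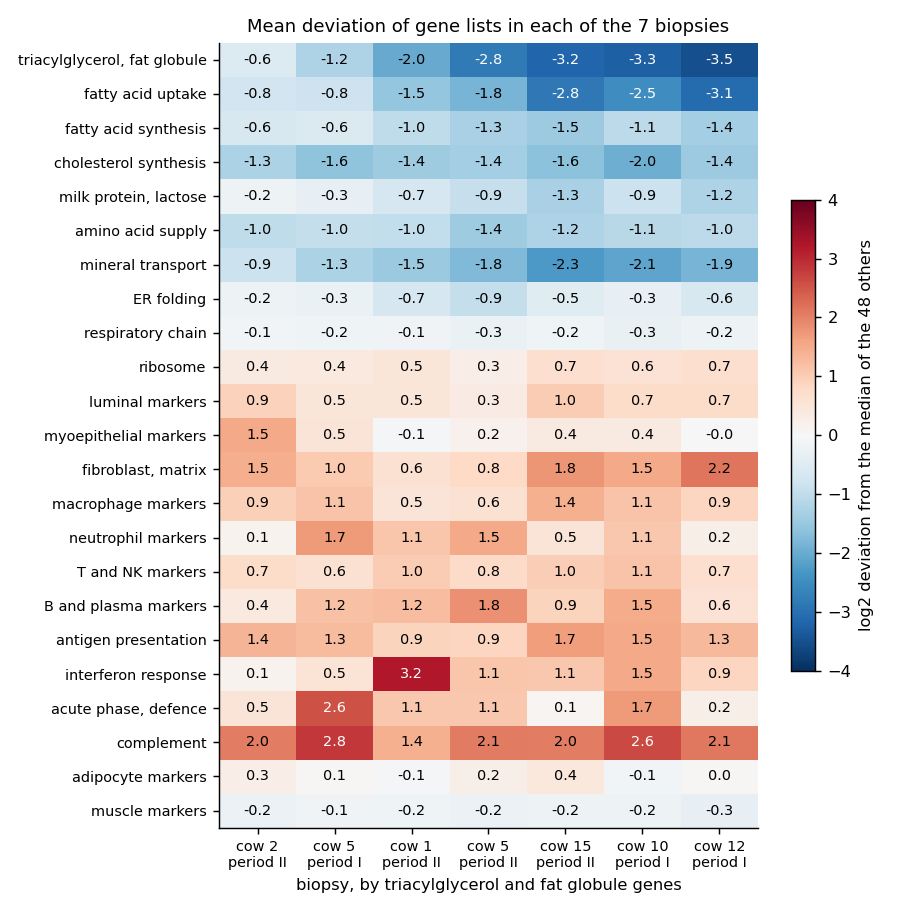
Mean log2 deviation of gene lists (rows) from the median of the 48 others of the same period, in each of the 7 biopsies (columns), ordered by the triacylglycerol and fat globule genes; blue is lower, red is higher. The top row runs from -0.6 to -3.5, while cholesterol synthesis stays between -2.0 and -1.3 and complement between 1.4 and 2.8.

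Among bright genes, the 8 with the largest spread over the 7 biopsies, by SD with period taken off, were SPADH1, CIDEA, LPO, MUC1, GP2, BTN1A1, LOC282340 and SLC27A6. SPADH1, a spermadhesin, read 8.70 in both cow 2 and the period I biopsy of cow 5, and 2.00 to 2.32 in cows 10, 12 and 15. The SD over the 7 biopsies was 2.76 for CIDEA and 2.78 for LPO, against 0.42 for CFI and 0.42 for KRT8.

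Of the 9 markers, all but HP and COL1A1 were apart in the biopsies nearest the threshold on its 2 sides. The same values set the threshold, so this is a description of these few biopsies alone. Just inside it lay the period I biopsy of cow 5 (0.951) and just outside it the period I biopsy of cow 3 (0.961), the period II biopsy of cow 25 (0.965) and the period I biopsy of cow 1 (0.965). In the 3 outside it LPL was 12.36, 12.60 and 12.55, against 10.71 in cow 5 and 11.03 in cow 2. CHI3L1 was 1.80, 2.88 and 5.82 in the 3, against 10.86 and 11.02. SCD, FABP3, SAA3 and KRT8 were likewise apart. HP was not, at 2.86 in cow 2 against 3.01, 2.70 and 2.88, nor was COL1A1, at 7.08 in cow 5 against 7.58 in cow 25. LALBA was apart by a small margin, at 13.43 and 13.34 against 13.51, 13.56 and 13.66. The 3 outside were not those of the 48 most like the 7 in every gene. Their complement genes had mean deviations of -0.72 (cow 3), -0.94 (cow 25) and 0.54 (cow 1). The period II biopsy of cow 10, with a higher mean correlation of 0.970, had LPL 11.40, SAA3 10.84, CHI3L1 11.46 and KRT8 8.84. Pairs within the 7 correlated at a median of 0.967 (21 pairs), pairs within the 48 at 0.978 (1128 pairs), and pairs across at 0.923 (336 pairs).

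Of the 6 cows, 5 had a second biopsy among the 48, which set 5 of the 7 biopsies against the same animal; cow 5 had both biopsies among the 7 and gave no such value. The within-cow difference was the differing biopsy minus the other, less the mean period difference of the 21 cows with both biopsies among the 48. Of the 1043 higher probe sets 813 were higher in 5 of 5 cows, and of the 549 lower ones 438 were lower in 5 of 5. These probe sets were counted on the same 7 arrays, 5 of which are in the within-cow differences. The agreement was therefore largely built in and supports nothing, and the share over all probe sets is not given. LPL was lower by 3.67, 4.03, 2.63, 1.31 and 3.59 units in cows 10, 12, 1, 2 and 15. CFI was higher by 5.66, 4.26, 5.12, 6.51 and 2.57 in the same cows. SAA3 was higher in 5 of 5 as well, by 0.94 (cow 15) to 6.46 (cow 2), and HP by 0.22 (cow 2) to 4.75 (cow 1). As a description over these 5 cows, the acute phase list had a within-cow median of 0.44, against 1.40 in the whole set, and the globule list had -1.86, against -2.22.

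**Figure D4:**
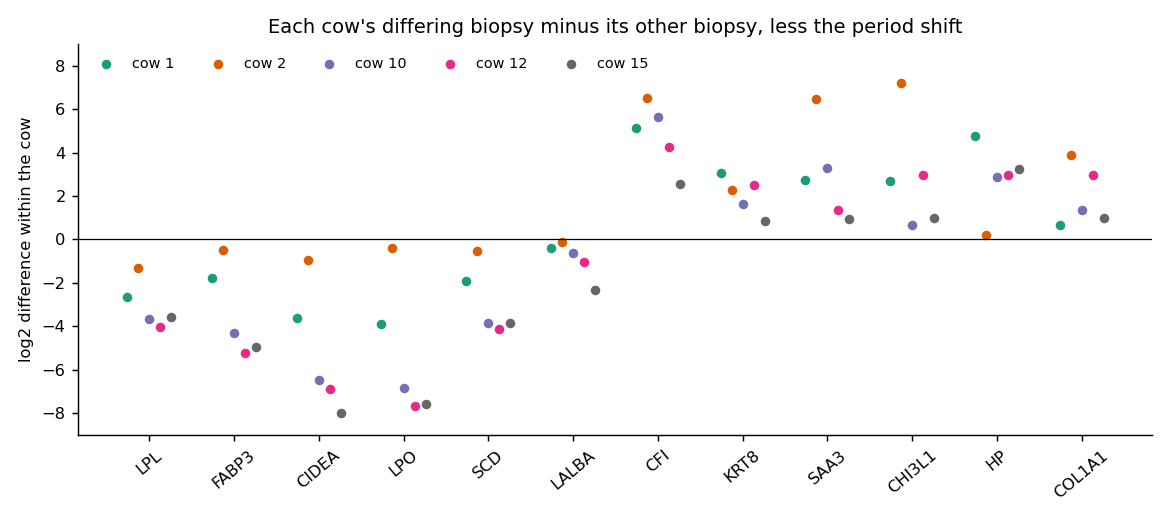
Log2 difference between the differing biopsy and the other biopsy of the same cow, less the period shift (vertical axis), for 12 genes, with 1 point per cow. LPL, FABP3, CIDEA, LPO, SCD and LALBA lie below 0 in all 5 cows, from -0.13 (LALBA in cow 2) downwards, and CFI, KRT8, SAA3, CHI3L1, HP and COL1A1 lie above 0.

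The other biopsies of these 5 cows were tested against the 43 remaining arrays with limma, with period as a covariate and cow as a random block. All 48 had entered the mean correlations and lay above the threshold, so the test compares only biopsies that the rule had left. No probe set of 10680 passed an adjusted p of 0.05 (0%), and the smallest adjusted p was 0.0745, while 1250 had an unadjusted p under 0.05. LPL was lower by 0.41 ± 0.12 (SE) with a limma adjusted p of 0.152, and SCD by 0.24 ± 0.066 with 0.150. SAA3 was higher by 1.79 ± 1.14 with a limma adjusted p of 0.540, and CFI by 0.90 ± 0.70 with 0.632. The direction was that of the 7 biopsies for each of these 4 genes, at a small part of the size for LPL and SCD, and none of the 4 passed. Restricted to the 4441 probe sets with a mean level of at least 4, the same limma test called 14, of which 3 were higher and 11 lower. Their limma adjusted p ran from 0.0449 to 0.0475. The lower ones included POLR3D (-0.88), ARFIP2 (-0.90), TMEM214 (-0.78), CD36 (-0.32) and MFSD2A (-1.45), a carrier of lysophosphatidylcholine. U2AF1L4 (0.75) and VPS35L (0.77) were among the higher ones. The rule had already taken out the arrays that differed most, using these same values, so no conclusion is drawn from the 14 calls.

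Of 4 tests of labels none passed the threshold. By two-sided Fisher's exact tests, 3 of 28 period I and 4 of 27 period II arrays were among them (p = 0.705, adjusted over 4 tests 0.940). By period I diet they were 2 of 7 on rapeseed oil, 1 of 7 on linseed oil and 0 of 7 on each of the other diets (p = 0.581, adjusted 0.940). Counted as cows by the oil fed earlier, they were 2 each of linseed and rapeseed and 1 each of soybean and mixture (p = 1). The array names carry a prefix of 2 values, and 5 of 27 arrays with the first and 2 of 28 with the second were among the 7 (p = 0.252, adjusted 0.940). Prefix and period nearly coincided, with 25 period I arrays under the first prefix and 25 period II arrays under the second. That test pooled the periods, so it cannot separate prefix from period. In period I, 3 of 25 arrays with the first prefix and 0 of 3 with the second were among the 7. In period II they were 2 of 2 and 2 of 25, which was not tested. All 6 cows had numbers of 15 or lower, 6 of 15 such cows against 0 of 13, which was seen in the data and not tested. With counts this small, differences between labels of moderate size were not detectable.

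Control probe sets, which did not enter the choice, also differed. Affymetrix arrays carry probe sets for bacterial RNAs that are added in set amounts: bioB, bioC, bioD and cre to the hybridisation mix, and dap, lys, phe and thr as polyadenylated RNA ahead of labelling. For 14 measures an exact permutation test of the arrays within period, two-sided over 57493800 regroupings, gave 11 with an adjusted p under 0.05. The bioB level was 5.06 to 6.45 in the 7 biopsies (median 6.13) and 6.04 to 9.25 in the 48 (median 7.52), lower by 1.52 (exact permutation, adjusted p = 4.87e-07). The bioC level was lower by 1.14 (2.43e-07), bioD by 0.47 (4.05e-04) and cre by 0.10 (0.150). The 2 groups overlapped in all 4.

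The polyadenylated spikes were lower as well, thr by 1.28, phe by 0.74, lys by 0.68 and dap by 0.37, with adjusted p from 2.43e-07 to 1.63e-04 (exact permutation). The 3′ minus 5′ level of thr was 1.48 to 4.02 in the 7 against 0.23 to 1.99 in the 48, higher by 1.52 (exact permutation, adjusted p = 4.87e-07). That of dap was higher by 0.43 (0.00184) and that of lys by 0.092 (0.201). For the cow's own RNA, the 3′ minus 5′ level of GAPDH was higher by 0.28 (exact permutation, adjusted p = 0.0394), a call lost without the 2 arrays of cow 5 (0.025, adjusted p = 0.637). For phe it was higher by 0.19 (0.0367), lost without cow 5 too (0.064, adjusted p = 0.444). That of actin was higher by 0.19 (0.135) at levels of 3.5 or less, near the dim end. The log2 values of whole arrays were also more spread in the 7, with interquartile ranges of 3.82 to 3.96 against 3.36 to 3.81, which come from the values that chose them. The part of these technical differences in the gene differences was not tested.

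**Figure D5:**
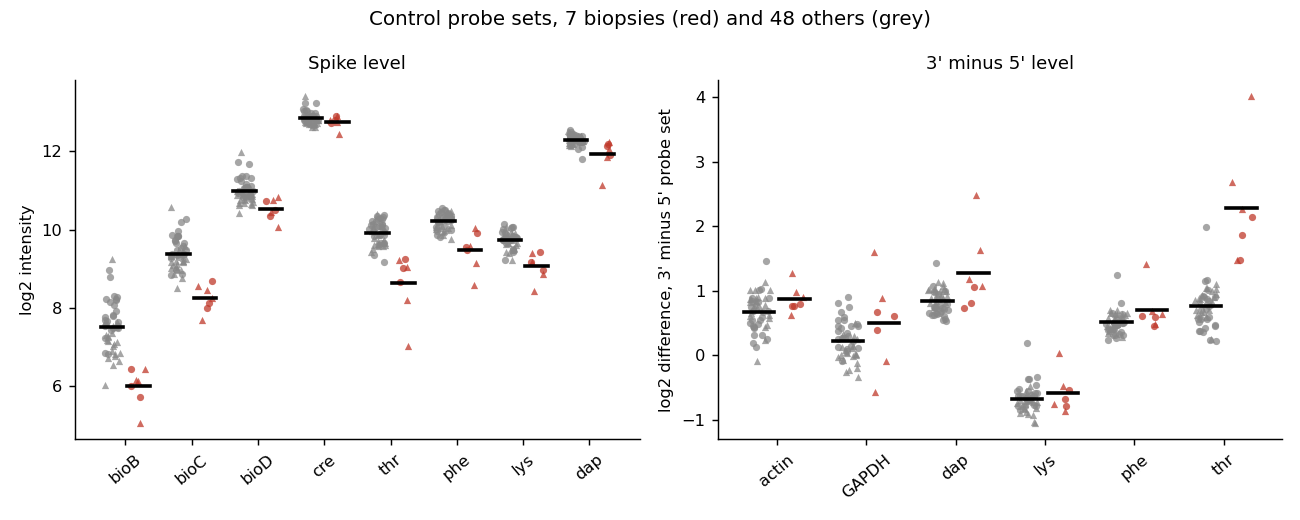
Log2 intensity of the added control RNAs (left) and log2 difference between 3′ and 5′ probe sets (right), 1 point per array, in the 7 biopsies (red) and the 48 others (grey); circles are period I, triangles period II, and bars are means. The bioB and bioC points of the 7 lie low, with means 1.52 and 1.14 below the others, and the 3′ minus 5′ level of thr lies high, reaching 4.02 in the period II biopsy of cow 5.

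The lactophorin rows among the control probe sets gave a second reading of a milk gene. They were chosen after their values were seen. The 2 rows differed by -2.17 and -1.99, with 8.94 to 13.20 and 9.52 to 13.41 in the 7 biopsies, and 13.12 to 13.68 and 13.27 to 13.67 in the 48. The GLYCAM1 probe set itself differed by -1.93.

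Levels of the 9 markers also varied over the 48 biopsies, where LPL was set against each of the other 8 within each period, over 25 and 23 arrays of different cows. The same rule left these 48 and the markers were chosen for the pattern of the 7, so the correlations are a description and support nothing. With LPL, KRT8 had r = -0.69 in period I and -0.51 in period II, CHI3L1 had -0.48 and -0.66, and SAA3 had -0.35 and -0.59. FABP3 had 0.50 and 0.61, and SCD had 0.55 and 0.46. LALBA had 0.22 and 0.61, HP had -0.004 and -0.53, and COL1A1 had -0.36 and -0.22. Without the 2 arrays farthest from the median of LPL, KRT8 had r = -0.57 in period I and -0.48 in period II. In the same order CHI3L1 had -0.29 and -0.54, SAA3 had -0.17 and -0.51, FABP3 had 0.40 and 0.44, and SCD had 0.36 and 0.27. LALBA then had 0.53 and 0.49, HP had -0.03 and -0.17, and COL1A1 had 0.08 and -0.11.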

How the data were processed

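Each of the 55 arrays gave 11495 rows of linear intensity in the table the authors deposited. Per the submitters' processing notes RMA and GCRMA were used, with no version or role given. Here log2 was taken, 112 control rows were set aside, and rows with identical values were merged (703), leaving 10680 probe sets. Of these 6649 had 1 symbol through their accession in the RefSeq table for ARS-UCD2.0, used for names alone (6636 genes, by the probe set with the highest mean), 4029 had none and 2 had several. Median intensities per array were 9.47 to 12.08 (10.52 to 12.08 in the 7). Depth does not apply to arrays, and their number limits precision. Each array is a separate biopsy, and each cow and period has 1.

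Differences are coefficients of limma 3.58.1 (R 4.3.3) on the log2 values with period as a covariate. Sizes of at least 1 log2 unit were counted. Control rows (exact permutation, adjusted with scipy 1.17.1) and labels (Fisher's exact test, R 4.3.3) took no part in the choice of arrays. The other biopsies of the same cows, tested with limma and Benjamini-Hochberg adjustment (tested on simulated data), had entered it and passed the threshold, as had the 48 arrays behind the correlations. The members, gene lists and markers were chosen with earlier results of these data known. Named genes were the 12 largest differences on each side with all 7 biopsies on 1 side of the period median, the 8 with the largest spread among genes with a mean of at least 6, the markers, up to 4 members per list and members whose role was needed. Both biopsies of a cow share the animal, so cow numbers pair them: over 27 cows the median correlation of their deviations was 0.192.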

Additional observations from a re-analysis of the deposited data

Results flagged for a closer look

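Among 170 sets of values, each over the 7 biopsies, 12 had an end value far from the rest by Dixon's ratio, which chance gives in about 1 set in 20. Cow 2 in period II gave 5 of them. There haptoglobin (HP) was 2.86 against 6.59 to 8.85 in the other 6, the carnitine carrier SLC25A20 was 3.197 against 4.22 to 4.81, the glucose transporter SLC2A1 was 5.73 against 3.98 to 4.60, SREBF1 was 3.19 against 1.91 to 2.42, and the contractile gene CNN1 was 8.95 against 5.25 to 6.83. In cow 1 in period II the interferon-induced MX1 was 8.55 against 3.29 to 5.40. In cow 15 in period II the endothelial claudin CLDN5 was 6.77 against 5.09 to 5.52, and the cre control level was 12.43 against 12.71 to 12.89. In cow 5 in period II the haemoglobin chain HBB was 4.42 against 2.38 to 3.08, the dap control level was 11.13 against 11.86 to 12.22, and the phe 3′ minus 5′ level was 1.42 against 0.45 to 0.69. In cow 10 in period I the muscle actin ACTA1 was 2.21 against 1.70 to 1.85, at dim levels.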

How the results depend on the processing

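Array number limits these values, and dim probe sets, milk protein sets near the top of the scale, the array name prefix and the control spikes were not separated from the gene differences. With cow as a fixed replicate block 805 probe sets were higher and 433 lower by at least 1 log2 unit, a fit that rests on 5 cows. Leaving out each of the 7 arrays in turn gave 988 to 1154 higher and 515 to 627 lower, and without both arrays of cow 5, a choice made after seeing the data, 1046 and 561. Centring each array gave 785 and 755 and quantile normalization 782 and 706. Of the 4441 probe sets with a mean level of at least 4, 610 were higher and 466 lower, against 1043 and 549 of all 10680. Of 3629 values of 156 named genes and 35 list medians under 19 alternatives, 106 moved by more than the SD of the 7 biopsies and 0 turned direction from a size of at least 1. For the other biopsies limma called 0 without the replicate block, 1 in period II alone (ALDH18A1, -1.40, adjusted p = 0.0453), 0 to 1 without each cow in turn (MFSD2A without cow 12, -1.80, adjusted p = 0.00922) and 14 with the filter on level. The GAPDH 3′ minus 5′ difference was 0.096 to 0.46 without each array in turn and 0.025 without cow 5, and that of phe was 0.067 to 0.23 and 0.064, none of them called throughout. The cause was not tested. Of the 16 relations with LPL, given as a description, 11 had an adjusted permutation p under 0.05 by Pearson's r, 3 by Spearman's rho, a choice made after seeing the data, and 0 without the 2 farthest arrays.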

Other observations

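Genes of energy use and stress, given here as sizes between the same groups, mostly stayed within 1 log2 unit. Over all probe sets 9.77% were higher by at least that much and 5.14% lower. The counts below were not tested against these shares. Of 14 fatty acid oxidation genes 2 were higher, the alpha and beta subunits of the mitochondrial trifunctional protein, HADHA (1.71) and HADHB (2.12). HADHB ranged from 7.60 to 8.40 in the 7 biopsies against 4.82 to 7.52 in the 48, without overlap. ECI1, an isomerase of the same pathway, was lower (-1.23). Of 26 respiratory chain genes 1 was lower (NDUFV1, -1.03) and the median was -0.11. The 14 cytosolic ribosomal protein genes all lay between 0.11 and 0.76, with a median of 0.51 that was 0.35 with each array centred on its median and 0.27 with quantile normalization.

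Of 17 redox genes 3 were higher, haem oxygenase HMOX1 (1.50), NQO1 (1.12) and the mitochondrial dismutase SOD2 (1.07), with a median of 0.32. Of 12 cell cycle genes 2 were higher, the helicase subunit MCM6 (1.53) and TYMS (1.10), with a median of 0.44. Immediate early and heat shock genes had a median of -0.07 over 18 members, with FOS (1.86) and IER3 (1.23) higher and EGR1 (-1.11) lower. FOS was uneven over the 5 within-cow differences, from -1.69 to 5.16.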
